A study of Mus musculus with 12 samples.

Results

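Anxa1 and Anxa8 encode annexins A1 and A8. Both read lower in the RNA labelled deltaNp63alpha than in the RNA labelled beta-galactosidase on every array that measured them. That direction rests on an assumed order of the dyes, described below, and is likely rather than settled. The members were taken by annotation, as the probes named Anxa1 or Anxa8 on a spotted mouse cDNA array, and they are 2 of 6774 named genes. Each had 1 probe. They were also chosen by their log2 ratios in these data, because both had passed the test of the deltaNp63alpha effect in high calcium and Anxa1 had passed it in low calcium too. Their ratios at each calcium level are therefore given as a description, with no test.

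The cells were primary skin keratinocytes of C57Bl/6NCr mice, transduced with an adenovirus for deltaNp63alpha or, as the control, for beta-galactosidase, and harvested 41 h later. DeltaNp63alpha is a p63 isoform without the N-terminal transactivation domain. For the last 24 h the cells stayed in 0.05 mM calcium (low) or were raised to 0.12 mM (high), the level that the labels describe as inducing differentiation. Of the 12 two-colour arrays, 6 belonged to each calcium level, and each array carried both RNAs of that level, 1 in Cy3 and the other in Cy5. A level had 3 repeats, each made of a forward array (deltaNp63alpha in Cy5) and a reversed array (deltaNp63alpha in Cy3), which together form a dye-swap pair. Calcium levels never met on an array, so the response of an annexin to calcium itself was not measured. The submitters call the arrays technical repeats and give no number of animals or cultures, so the spread between pairs may be technical. The RNA came from whole cultures, in which fewer cells of a type and less RNA per cell cannot be told apart.

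Annexins are cytosolic proteins that bind to acidic phospholipids in membranes when calcium rises, through a core of repeated domains that each can hold calcium. The N-terminal tail differs between members and carries the sites for partners, many of them S100 proteins. Annexin A1, once called lipocortin, is known as an inhibitor of phospholipase A2 activity, as a protein induced by glucocorticoids and as an anti-inflammatory ligand of formyl peptide receptors. In the epidermis it is a substrate of transglutaminase and is built into the cornified envelope, the protein shell of the outermost cells. Annexin A8 is found in stratified epithelia and has been linked to late endosomes.

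In the RefSeq annotation of GRCm38.p6, Anxa1 is a protein-coding gene on the minus strand of chromosome 19 (20373434 to 20390671). Anxa8 is a protein-coding gene on the plus strand of chromosome 14 (34085979 to 34100571), so the genes are not neighbours. Their promoter windows, 250 bases before to 50 bases after the start, are shown because the 2 genes read low together and the study overexpressed a p53-family protein. Capitals mark matches to 4 motifs searched on both strands: the p53-family half-site, TGANTCA (the AP-1 site), TGTTCT (part of the glucocorticoid response element) and TATAAA. The sequences are from RefSeq, GRCm38.p6, written 5′ to 3′ on the strand of the gene, at chr19:20390622-20390921 and chr14:34085729-34086028.
Anxa1: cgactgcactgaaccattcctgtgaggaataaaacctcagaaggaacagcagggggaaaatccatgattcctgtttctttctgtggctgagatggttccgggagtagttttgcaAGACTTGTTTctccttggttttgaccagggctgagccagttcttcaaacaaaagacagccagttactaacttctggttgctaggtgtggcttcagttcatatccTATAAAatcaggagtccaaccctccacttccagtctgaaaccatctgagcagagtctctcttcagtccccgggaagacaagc
Anxa8: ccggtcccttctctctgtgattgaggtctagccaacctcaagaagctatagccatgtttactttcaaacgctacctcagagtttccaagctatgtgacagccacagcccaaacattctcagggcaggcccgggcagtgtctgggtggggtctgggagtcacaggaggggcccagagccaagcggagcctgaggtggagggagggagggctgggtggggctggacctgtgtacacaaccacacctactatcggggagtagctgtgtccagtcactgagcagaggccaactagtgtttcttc
The Anxa1 window held 1 p53-family half-site, from -136 to -127 relative to the start, whose letters match on both strands, and TATAAA from -32 to -27. Of 32851 promoter windows of the same length, 8.36% held a p53-family half-site and 13.6% held TATAAA. None of the 4 motifs was in the Anxa8 window, and TGANTCA and TGTTCT, held by 7.81% and 19.0% of windows, were in neither. These matches describe letters only.

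The direction of every ratio rests on a reading of the files. The deposited log2 ratios do not state which dye is the numerator. They were taken to be Cy5 over Cy3, and the values of reversed arrays were turned, and a negative value means less signal from the RNA labelled deltaNp63alpha. The usual order of a dye ratio is the basis. The direction is likely rather than settled, since the array titles name deltaNp63alpha before beta-galactosidase on forward and reversed arrays alike. As deposited, forward and reversed values of a pair correlated positively over all rows, with r from 0.12 to 0.71, so much of the deposited signal did not flip with the dye. Whether reversed arrays had been turned before deposit was not tested. The probe of the targeted gene, Trp63, did not read higher in the RNA labelled deltaNp63alpha: its pair values were -0.78 and 0.45 in low calcium and -0.59 and -0.51 in high calcium. Whether that probe detects the transgene was not tested. Arrays differed in how many of the 9558 probes had a value, from 3366 to 9096. Repeat 1 of low calcium and repeats 1 and 2 of high calcium, which have the lower experiment numbers in the labels, were the well-filled ones. The other 3 repeats were sparse and have the higher numbers. The number of arrays limits the precision.

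Anxa1 had a value on all 12 arrays. In low calcium the forward arrays of repeats 1, 2 and 3 read -0.73, -0.35 and -0.41 on the log2 scale. The reversed arrays of the same repeats read -0.95, -1.65 and -1.69 after turning. All 6 were below 0, and in the sparse repeats 2 and 3 the reversed array lay far below its forward partner. The pair values, each the mean of the forward and the turned reversed ratio, were -0.84, -1.002 and -1.05. Their mean was -0.96 ± 0.11 (SD, n = 3 pairs), a 1.95-fold lower signal.

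In high calcium the forward arrays of repeats 1, 2 and 3 read -0.94, -0.54 and -0.90 for Anxa1. The turned reversed arrays read -1.11, -1.38 and -2.53. Again all 6 arrays were below 0, and the sparse repeat 3 held the lowest value of all. The pair values were -1.02, -0.96 and -1.71, with a mean of -1.23 ± 0.42 (SD, n = 3 pairs), a 2.35-fold lower signal. Without repeat 3 the mean was -0.99, so that repeat carried most of the spread. Over all 6 pairs Anxa1 ranged from -1.71 to -0.84, with a mean of -1.10 ± 0.31 (SD, n = 6 pairs).

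Anxa8 had a value on 7 arrays, and all 7 were below 0. In repeat 1 of low calcium it read -0.81 on the forward and -1.37 on the turned reversed array, which gave a pair value of -1.09. In repeat 2 only the forward array had a value, -0.50, and in repeat 3 neither had one, so low calcium rests on 1 pair and could not be tested. In high calcium the forward arrays of repeats 1 and 2 read -1.07 and -1.27 and the reversed arrays -0.98 and -1.63. The pair values were -1.02 and -1.45, with a mean of -1.24 ± 0.30 (SD, n = 2 pairs), a 2.35-fold lower signal. High calcium repeat 3 had no value for Anxa8.

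**Figure D1:**
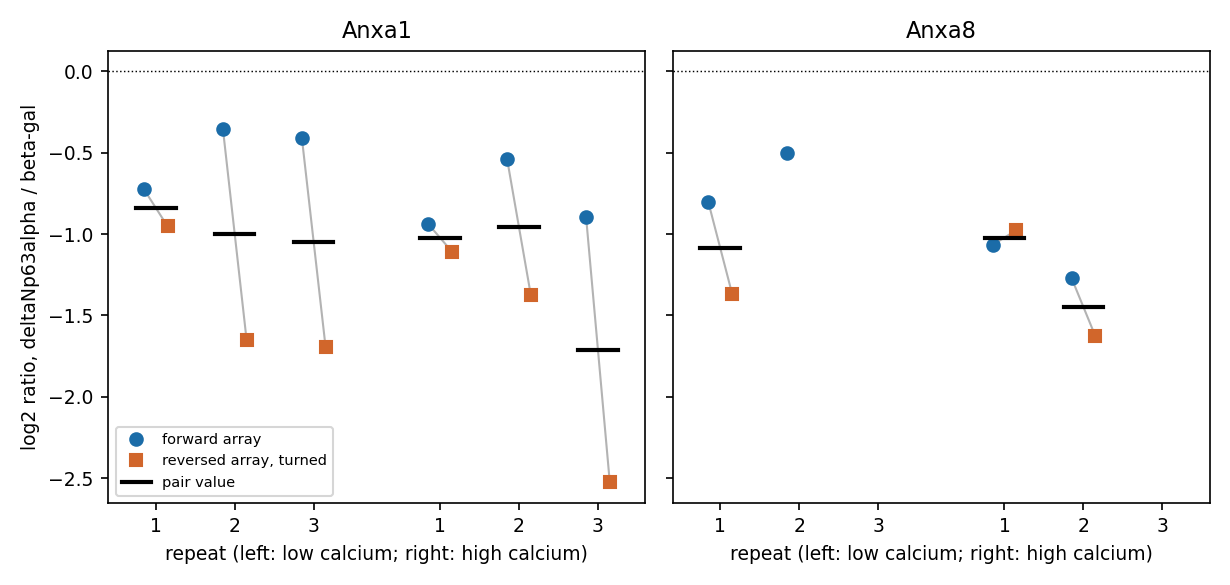
Log2 ratio (vertical axis, deltaNp63alpha over beta-galactosidase, reversed arrays turned) of Anxa1 (left) and Anxa8 (right) in each repeat of low and high calcium; circles are forward arrays, squares are turned reversed arrays and black bars are pair values. Every point lies below 0, and the reversed arrays of Anxa1 reach -2.53 in high calcium repeat 3.

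Set side by side in the pairs that measured both, Anxa8 read about as low as Anxa1 or lower. In high calcium repeat 1 the pair values were -1.02 for Anxa1 and -1.02 for Anxa8. Anxa8 was lower than Anxa1 by 0.25 on the log2 scale in low calcium repeat 1 (-1.09 against -0.84) and by 0.49 in high calcium repeat 2 (-1.45 against -0.96). With 3 shared pairs, and both genes chosen for low ratios, no test of their likeness was made.

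Across all rows of the fit (a row is a named gene or an unnamed probe), 0.409% were called at a limma adjusted p under 0.05 in low calcium (19 of 4646), and 0.387% were called lower. In high calcium 1.39% were called (101 of 7263), and 0.840% were called lower. Anxa1 was among the rows called lower at both levels and Anxa8 among those called lower in high calcium. Both were chosen for that, and nothing is read from it. The 3 rows just inside the threshold had log2 ratios of -1.18, -1.50 and -0.80 in low calcium and -0.91, 1.09 and -0.98 in high calcium. The 3 just outside had -0.96, -0.78 and 1.01 in low calcium and -0.86, -1.03 and -1.04 in high calcium.

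The rank of Anxa1 varied between pairs. It stood in the lowest 2.12%, 0.395% and 1.52% of all rows with a value in low calcium repeats 1, 2 and 3. In high calcium repeats 1, 2 and 3 it stood in the lowest 0.529%, 2.26% and 0.289%. The percentiles of Anxa8 were 0.811% in low calcium repeat 1 and 0.543% and 0.365% in high calcium repeats 1 and 2. Thus Anxa1 ranked lowest in the sparse high calcium repeat 3 and Anxa8 in high calcium repeat 2. Of the 1381 rows with a value on all 12 arrays, 6 (0.434%) were below 0 on every one after turning and 2 (0.145%) were above 0 on every one, shares that would trade places under the opposite order of the dyes. Besides Anxa1 those below 0 were Flg (filaggrin), Nktr, Mthfd2, Tmcc3 and Ccn1, named after their values were seen. Among the 6699 rows measured on the 6 arrays of the well-filled pairs, 494 (7.37%) were below 0 on all 6, and Anxa1 and Anxa8 belonged to them.

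Both genes changed sign with the dye in every complete pair, 6 of 6 for Anxa1 and 3 of 3 for Anxa8: negative as deposited on forward arrays and positive on reversed ones. Of all rows, between 20.4% (low calcium repeat 2) and 46.3% (high calcium repeat 2) did so in a pair. Both genes were chosen by log2 ratios built on this change of sign, so nothing is read from the comparison. The 2 orientations differed in size for Anxa1. In low calcium its mean on forward arrays was -0.50 ± 0.20 (SD, n = 3), and on turned reversed arrays it was -1.43 ± 0.42 (SD, n = 3). In high calcium these means were -0.79 ± 0.22 and -1.67 ± 0.75 (SD, n = 3 each). The part shared by both orientations, the mean of the ratios as deposited, was 0.11 and 0.08 in repeat 1 of low and high calcium, and 0.42 to 0.81 in the other 4 pairs. For Anxa8 that part was 0.28 in low calcium and -0.05 and 0.18 in high calcium, smaller in size than its pair values in all 3 pairs. Had the reversed arrays been left as deposited, Anxa1 would read 0.47 in low and 0.44 in high calcium, and Anxa8 0.28 and 0.07.

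**Figure D2:**
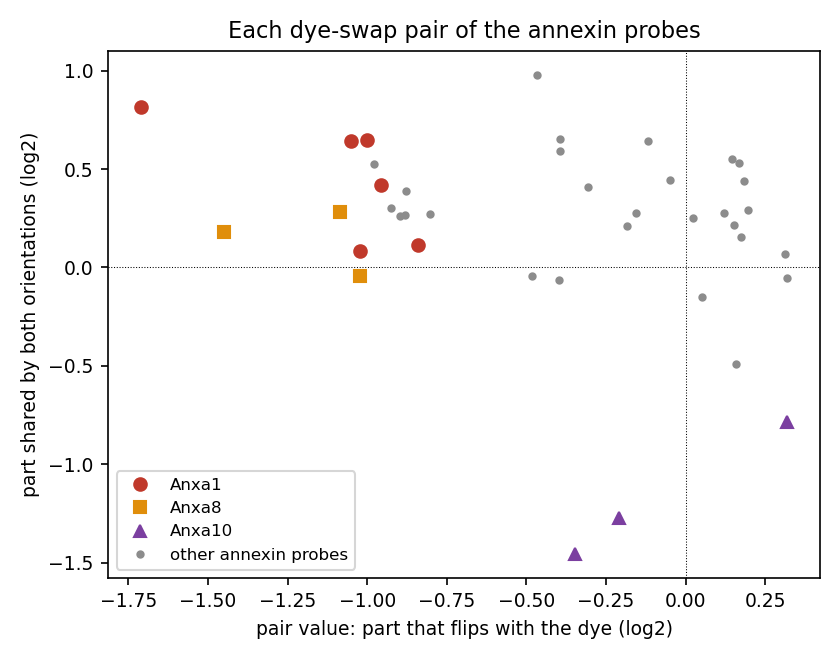
Each dye-swap pair of the annexin probes, with the pair value (horizontal axis, log2, the part that flips with the dye) against the part shared by both orientations (vertical axis, log2). The 6 pairs of Anxa1 and 3 pairs of Anxa8 lie to the left at -0.84 or lower, while the 3 pairs of Anxa10 lie at the bottom, at -0.79 to -1.46 in the shared part.

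The next comparison asked whether the deltaNp63alpha effect on Anxa1 differed between calcium levels. The gene was not chosen by this contrast itself. It was chosen by its ratios at both levels, from which the contrast is made, and that choice can limit the difference. The high minus low difference was -0.27 on the log2 scale, with a 95% interval from -0.77 to 0.24 (limma adjusted p = 0.9997, n = 3 pairs a level). A pair value lay below all 3 of low calcium in 1 of 3 high calcium repeats, so the levels overlapped. Within the well-filled repeats the difference was -0.15, and within the sparse ones -0.69, while without high calcium repeat 3 it was -0.03. Of all 4209 rows 0% were called for the difference (limma; 0 rows, and 107 at an unadjusted p under 0.05). Equal effects are not shown by this, since a further fall of up to 0.77 in high calcium is inside the interval. Anxa8 could not be tested for a difference, having 1 pair in low calcium at -1.09, against -1.02 and -1.45 in high calcium.

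**Figure D3:**
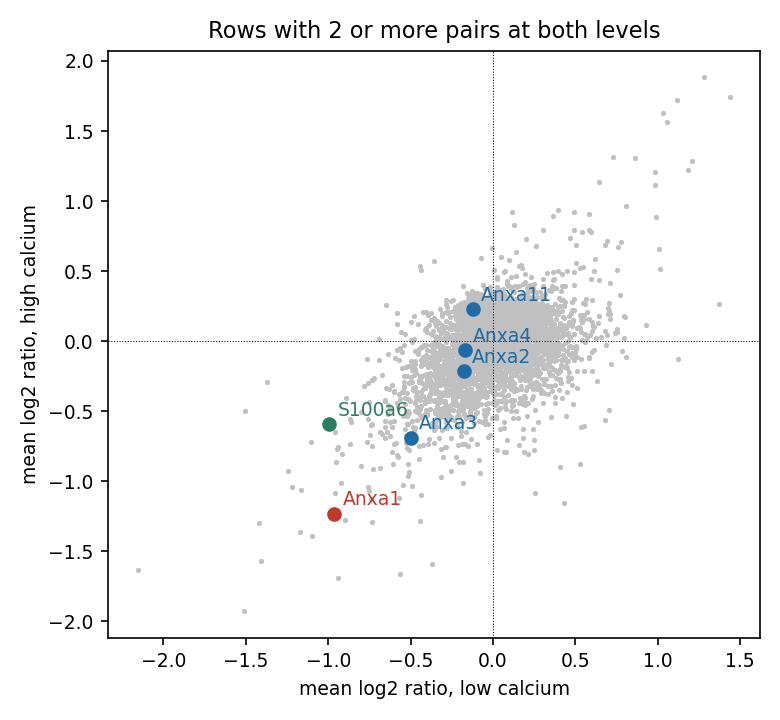
Mean log2 ratio in low calcium (horizontal axis) and in high calcium (vertical axis) of the 4209 rows tested for the difference between levels (grey points). Anxa1 (red) lies at -0.96 and -1.23, the tested annexins (blue) nearer to 0, and S100a6 (green) at -0.99 and -0.59; Anxa8 had 1 low calcium pair and is not drawn.

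The array held 7 other named annexin genes, and the test called none of them. Over all rows 0.409% were called in low and 1.39% in high calcium, so none called among so few genes says little. In low calcium 4 could be tested, all 4 below 0, with a median log2 ratio of -0.17 against 0.02 over all rows tested (limma; 0 called, 1 at an unadjusted p under 0.05). In high calcium all 7 could be tested and 5 were below 0, with a median of -0.21 against 0.01 over all rows (limma; 0 called, 2 at an unadjusted p under 0.05). Over all rows, 439 of 4646 in low and 842 of 7263 in high calcium were at an unadjusted p under 0.05 (limma). Of the rows tested, 46.5% and 49.4% were below 0. The lowest of the other annexins tested was Anxa3, at -0.50 in low calcium (limma adjusted p = 0.525, n = 2 pairs) and -0.69 in high calcium (limma adjusted p = 0.208, n = 2 pairs). Its pair values were -0.88 and -0.12 in low calcium and -0.40 and -0.98 in high calcium, so the repeats disagreed by more than the mean itself in low calcium. Anxa5, the annexin whose binding to exposed phosphatidylserine is used to detect dying cells, was at -0.56 in high calcium (limma adjusted p = 0.326), from pairs at -0.19 and -0.93. Its single low calcium pair was -0.88. With the 3 sparse repeats left out, a choice made after seeing the data, Anxa3 and Anxa5 passed in high calcium at the same ratios (limma adjusted p = 0.00881 and 0.0449). In that fit 8.60% of all rows were called in high calcium (598 of 6957), and 6.78% were called lower.

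Anxa2, which with S100a10 forms a complex at the plasma membrane, had 2 probes that disagreed. The first read -0.90, -0.31 and -0.47 in low calcium repeats 1, 2 and 3 and -0.48 and -0.80 in high calcium repeats 1 and 2. The second read 0.18 and 0.16 in low calcium repeats 1 and 2 and 0.12 and 0.31 in high calcium repeats 1 and 2. In all 4 pairs with both, the first was below 0 and the second above it, with a mean gap of 0.82. Of 104 genes with 2 probes compared in at least 4 pairs, 4 had a gap as large, Anxa2 included, and the median gap was 0.14. Averaged, Anxa2 stood at -0.18 in low and -0.21 in high calcium (limma adjusted p = 0.781 and 0.740). Taken singly, neither probe passed: the first had a limma adjusted p of 0.176 and 0.143 and the second 0.877 and 0.741 in low and high calcium. The averaged value therefore describes neither probe.

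The remaining annexins lay nearer to 0 in pair value. Anxa4 was at -0.17 and -0.07 in low and high calcium (limma adjusted p = 0.875 and 0.918), and Anxa11 at -0.12 and 0.23 (limma adjusted p = 0.919 and 0.671). Anxa7 was at 0.06 in high calcium (limma adjusted p = 0.923) and at 0.15 in its 1 low calcium pair. Anxa10 read -0.28 in high calcium (limma adjusted p = 0.672) and 0.32 in its 1 low calcium pair, but its arrays were far from 0. In high calcium its forward arrays read -1.48 and -1.80 and its turned reversed arrays 1.06 and 1.11, so nearly all of its signal was shared by both orientations, unlike that of Anxa1 and Anxa8.

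**Figure D4:**
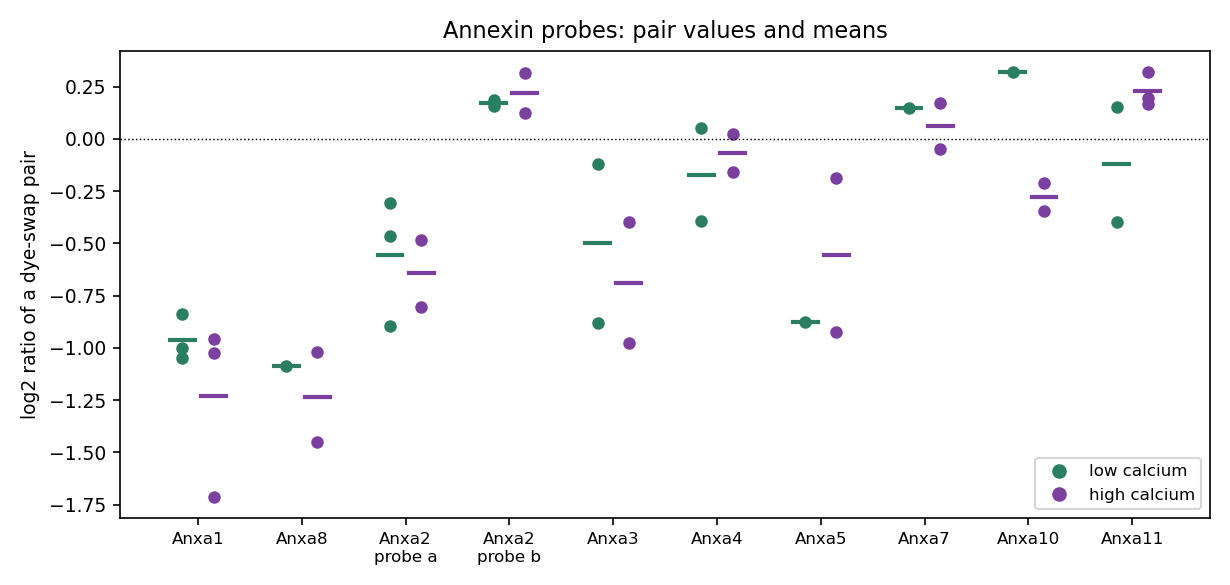
Log2 ratio of each dye-swap pair (points) and its mean (bars) for the 10 annexin probes in low and high calcium. Anxa1 and Anxa8 lie at -0.84 or lower in every pair, and the 2 probes of Anxa2 lie on opposite sides of 0.

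The partners and receptors of annexins were read from a list. This list and those below were chosen with earlier results of these data known. Their called shares and medians are therefore a description and no test of a list. Of 11 annexin partners and receptors 8 were on the array. In low calcium 5 could be tested and 1 was called lower, against 0.387% of all rows, with a list median of -0.65 against 0.02. In high calcium 7 could be tested and 1 was called lower, against 0.840% of all rows, with a median of -0.24 against 0.01. The member that fell in low calcium was S100a6 (calcyclin), a small EF-hand protein that binds several annexins, to -0.99 ± 0.18 on the log2 scale (limma adjusted p = 0.0450; SE, n = 2 pairs). Its forward arrays read -0.34 and -0.13 in repeats 1 and 2 and its turned reversed arrays -1.59 and -1.92, so the fall rests on the reversed arrays. On forward arrays alone it was -0.23 (limma adjusted p = 0.448), and with arrays brought to the same spread it did not pass (-0.97, limma adjusted p = 0.713). The same-spread fit called 0 of all rows in low calcium, so that loss says little about S100a6. In high calcium S100a6 was at -0.59 (limma adjusted p = 0.170, n = 2 pairs), and without the sparse repeats it passed at that ratio (limma adjusted p = 0.0173). The fit without those repeats called 8.60% of all rows in high calcium.

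S100a10, the light chain bound by annexin A2, fell in high calcium to -1.11 ± 0.19 on the log2 scale (limma adjusted p = 0.0219; SE, n = 2 pairs). Its forward arrays read -0.73 and -0.72 and its turned reversed arrays -1.35 and -1.65, all 4 below 0. The call was lost on forward arrays alone (-0.73, limma adjusted p = 0.159), on reversed arrays alone (-1.50, limma adjusted p = 0.181) and with arrays brought to the same spread (-1.63, limma adjusted p = 0.0736). Those fits called 0, 1 and 1 of all rows in high calcium, so the loss says little about S100a10. In low calcium 1 forward array measured it, at -0.71, so it was not tested there. Pla2g4a, the cytosolic phospholipase A2 that annexin A1 is known to inhibit, was at -0.65 in low calcium and -0.42 in high calcium and did not pass (limma adjusted p = 0.314 and 0.362). Pdcd6, a calcium-binding protein that associates with annexins, was at -0.67 in low calcium (limma adjusted p = 0.194), where the forward arrays of repeats 2 and 3 read 0.62 and 0.95 and the turned reversed ones -2.64 and -1.62. Egfr, the receptor kinase that phosphorylates annexin A1, was at -0.01 and 0.24 (limma adjusted p = 0.999 and 0.624). Trpm7, a channel kinase with annexin A1 as a substrate, was at 0.20 and -0.01 (limma adjusted p = 0.775 and 0.989). S100a11, the S100 partner of annexin A1, and the receptor genes Fpr1 and Fpr2 were not analysed here.

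Of the 13 listed S100 genes, which include S100a6 and S100a10, 3 could be tested in low calcium and 7 in high calcium, and 1 fell at each level, the same genes as above. The medians were -0.67 and -0.31, against 0.02 and 0.01 over all rows tested, of which 0.387% and 0.840% were called lower. S100a9, a subunit of calprotectin, was at -0.67 and -0.66 and did not pass (limma adjusted p = 0.196 and 0.141). It passed in low calcium on reversed arrays alone (-1.19, limma adjusted p = 0.0296), a fit that called 330 rows. On forward arrays alone it did not pass there (-0.22, limma adjusted p = 0.462). In high calcium it passed without the sparse repeats (limma adjusted p = 0.00856), a fit that called 8.60% of all rows. S100a8, the other subunit, was at 0.19 in high calcium (limma adjusted p = 0.774).

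Of the glucocorticoid list, by limma 0 of 8 passed in low calcium (0 at an unadjusted p under 0.05) and 0 of 8 in high calcium (2 at an unadjusted p under 0.05). Over all rows 0.409% and 1.39% were called in low and high calcium. At an unadjusted p under 0.05 (limma) were 439 of 4646 and 842 of 7263 rows. The medians of the list were 0.07 and 0.08. The smallest p-values in high calcium were those of Sgk1, a kinase induced by glucocorticoids, at -0.48 (limma adjusted p = 0.193), and Mt2, a metallothionein, at 0.58 (limma adjusted p = 0.352). Without the sparse repeats Mt2 passed at the same ratio (limma adjusted p = 0.0448), from pairs at 1.02 and 0.13. That fit called 8.60% of all rows in high calcium. Tsc22d3, a glucocorticoid-induced leucine zipper protein, was at 0.06 in low calcium (limma adjusted p = 0.951). The receptor gene Nr3c1 was at 0.21 and 0.14 (limma adjusted p = 0.811 and 0.854).

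Of the phospholipases A2 and enzymes of eicosanoid synthesis, 0 of 6 passed at either level (limma; 1 at an unadjusted p under 0.05 at each level, Pla2g4a), with medians of 0.08 and -0.13. The next smallest p was that of Lta4h, leukotriene A4 hydrolase, at 0.22 in low calcium (limma adjusted p = 0.750). Of the other calcium-dependent membrane and repair proteins, limma called 0 of 5 in low and 0 of 8 in high calcium (0 at an unadjusted p under 0.05 at both levels). Over all rows 0.409% and 1.39% were called in low and high calcium. At an unadjusted p under 0.05 (limma) were 439 of 4646 and 842 of 7263 rows. The medians of these membrane and repair genes were -0.18 and -0.07. The smallest p-values in high calcium were those of Capns1, the small calpain subunit, at -0.35 (limma adjusted p = 0.571), and Esyt1, an extended synaptotagmin, at -0.45 (limma adjusted p = 0.578).

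Among transglutaminases and the envelope proteins they cross-link, as they do annexin A1, 1 of 5 fell in low calcium and 1 of 7 in high calcium, Sprr1a both times (-2.15 and -1.63; limma adjusted p = 0.000419 and 0.0102). With arrays brought to the same spread its ratios were -1.999 and -2.35 and did not pass (limma adjusted p = 0.220 and 0.0531). That fit called 0 of all rows in low and 1 in high calcium, so the loss says little about Sprr1a. The medians of the list were 0.00 and -0.21, against 0.02 and 0.01 over all rows tested, of which 0.387% and 0.840% were called lower. The enzymes themselves did not pass. Tgm2 was at -0.25 and -0.26 (limma adjusted p = 0.746 and 0.737), Tgm3 at 0.13 and -0.21 (limma adjusted p = 0.919 and 0.772), and Tgm5 at -0.21 in high calcium (limma adjusted p = 0.706).

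A ratio within an array gives no level, so the labelled cell type could be checked only by whether its markers were measured. Of 10 keratinocyte markers 6 were named on the array, and each had a value on 6 to 10 of the 12 arrays. Some markers of other cell types had values on more arrays (Col1a2 and Mpo on 12) and some on fewer (Cd8a on 4). Being measured therefore could not tell cell types apart. The ratios of the keratinocyte markers follow. In low calcium 3 could be tested and all 3 were below 0, with a median of -0.23 (limma; 0 called, 0 at an unadjusted p under 0.05). In high calcium all 6 could be tested and 4 were below 0, with a median of -0.40 (limma; 1 called lower, 2 at an unadjusted p under 0.05). Over all rows 0.840% were called lower in high calcium. At an unadjusted p under 0.05 (limma) were 439 of 4646 rows in low and 842 of 7263 in high calcium. Of the rows tested, 46.5% and 49.4% were below 0. The keratinocyte marker that fell was Krt10, a keratin of differentiating cells, at -1.57 (limma adjusted p = 0.00821). Its call was lost on forward arrays alone (-1.60, limma adjusted p = 0.100), on reversed arrays alone (-1.55, limma adjusted p = 0.187) and with arrays brought to the same spread (-2.20, limma adjusted p = 0.0531). Those fits called 0, 1 and 1 of all rows in high calcium, so the loss says little about Krt10. Cdh1, the epithelial cadherin, was at -0.70 (limma adjusted p = 0.0667), and without the sparse repeats it passed at -0.87 (limma adjusted p = 0.000501). The latter fit called 8.60% of all rows in high calcium. The part of these shifts in the annexin ratios was not tested. Neutrophils and other leukocytes also express annexin A1. Of 37 markers of fibroblasts, melanocytes, macrophages, neutrophils, T cells and endothelium 24 were on the array, and none was called (limma; 0 of 17 in low calcium with 1 at an unadjusted p under 0.05, 0 of 21 in high calcium with 0). Among the tested markers the median log2 ratios were 0.03 and 0.12, and values ranged from -0.35 to 0.40. Over all rows 0.409% were called in low and 1.39% in high calcium. The 4 neutrophil markers, Mpo, Ngp, Ltf and Camp, were at 0.01, -0.40, 0.40 and 0.03 in low calcium, where Ngp had 1 pair, and at -0.03, -0.15, -0.05 and 0.32 in high calcium, where Ltf had 1. The part of other cells in the annexin ratios was not tested.

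The genes most like Anxa1 were found by the Pearson correlation of turned array values over at least 8 shared arrays, among 4077 named genes. They were Mipep (r = 0.97, 9 arrays), Smpdl3b (0.96, 8 arrays), Ergic1 (0.96, 8 arrays), Svop (0.96, 8 arrays) and Ahsa2 (0.95, 8 arrays), against a median r of 0.06. Their mean pair values, from -0.002 for Smpdl3b to 0.19 for Ahsa2, were near 0, and they shared with Anxa1 a lower mean on reversed than on forward arrays (-0.34 against 0.27 for Mipep). Within forward arrays alone r with Anxa1 was between 0.59 (Smpdl3b) and 0.998 (Mipep), and within reversed arrays alone between 0.91 and 0.98. Each orientation holds only part of the 8 or 9 shared arrays. These genes were picked on the same arrays, so a high r within an orientation partly follows from the choice. These points share dye orientation and array set, whose part in the likeness was not tested. Among annexins the correlation with Anxa1 was 0.76 for Anxa2 (11 arrays), 0.66 for Anxa3 (8 arrays), 0.59 for Anxa11 (10 arrays) and 0.09 for Anxa4 (8 arrays). Anxa8, with 7 arrays, had too few for this search.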

How the data were processed

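Per the labels, a Genisphere kit coupled the dyes to total RNA. For each array the authors deposited 1 log2 ratio per probe, whose base was taken as log2 from the range (-7.88 to 4.60). Array medians were -0.0005 to 0.0005. How arrays were scanned, background-corrected, normalised and filtered is not given in the sources used here.

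Of 9558 probes 7457 had 1 gene symbol in the platform annotation, 481 several and 1620 none listed. For 7368 the symbol was updated through the gene ID (GRCm38.p6). Probes of a gene were averaged, giving 8875 rows. Each array was centred on its median, reversed arrays were turned, and a pair with 1 missing array was missing. All 6 pairs were fitted across all rows with limma 3.58.1 in R 4.3.3 (lmFit, eBayes with 9.55 prior degrees of freedom, two-sided, Benjamini-Hochberg). A row needed at least 2 pairs at a level to be tested. The procedure was run on simulated pair values with independent noise and no dye or array set component. That run therefore gives no check on those parts of the real arrays.

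Members, gene lists and the turning of reversed arrays were chosen with earlier results of these data known. Named genes were all annexins, list members that passed or else the 2 of smallest p per list, and the 5 genes most correlated with Anxa1. Other genes named were chosen after their values were seen, for their known link to annexin A1 or to complete a list. Alternatives tried were the sign of reversed arrays, single orientations, arrays as replicates, single arrays kept, centring, scaling, variance model, blocks, probes, complete rows and each repeat left out.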

Additional observations from a re-analysis of the deposited data

Results flagged for a closer look

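Of the 4 high calcium arrays that measured Anxa3, the reversed array of repeat 2 read -1.50 after turning, while the other 3 read between -0.46 and -0.33, and its gap to them passed Dixon's 95% criterion for 4 values, at 0.892 of the range. Chance alone marks about 1 in 20 groups, and 17 groups of annexins and S100 partners were examined. The arrays of Anxa1 and Anxa8 passed no such criterion. The nearest was the reversed array of high calcium repeat 3 for Anxa1, at 0.58 of the range, under the criterion for 6 values.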

How the results depend on the processing

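Anxa1 and Anxa8 kept a negative ratio at both levels under the alternatives run, except with signs kept as deposited (Anxa1 0.47 and 0.44, Anxa8 0.28 and 0.066 in low and high calcium). Forward arrays alone gave -0.50 and -0.79 for Anxa1 and -0.65 for Anxa8 in low calcium; reversed arrays alone gave -1.43, -1.67 and -1.37. Anxa1 was -0.84 in low calcium without the sparse repeats or in the first array set, and -1.71 in high calcium in the second set. Anxa8 in low calcium was -0.79 with the single array kept, -1.46 after scaling arrays to the same spread, and the replicate block gave -1.51; in high calcium it was -1.74 on the same spread. With 1 repeat left out, Anxa1 ranged from -1.03 to -0.92 in low and from -1.37 to -0.99 in high calcium, Anxa8 from -1.45 to -1.02 in high calcium, and the difference for Anxa1 from -0.40 to -0.03. That difference was -0.55 with arrays scaled to the same spread and -0.42 with the array set block, and passed under no alternative.

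The number of rows called depended on the processing. In low calcium (19) it was 763 with kept signs, 33 and 330 on forward and reversed arrays, 1 with arrays as replicates, 0 with single arrays kept, on the same spread or with a trended and robust variance, 47 with the array set block, 59 with the replicate block, 4 over complete rows, and 6 to 51 with 1 repeat left out. The lowest was without low calcium repeat 1, and it was 50, 51 and 30 without high calcium repeats 1, 2 and 3. In high calcium (101) it was 0 with kept signs, on forward arrays, with arrays as replicates, with single arrays kept or with the trended and robust variance, 1 on reversed arrays and on the same spread, 14 over complete rows, 598 without the sparse repeats, and 33 to 151 with 1 repeat left out. It was 33 and 34 without high calcium repeats 1 and 2. For the difference (0) it was 1 with the array set block, 2 with the replicate block and 0 to 1 with 1 repeat left out (1 without high calcium repeat 1 or 2). The replicate block and the fits without high calcium repeat 1 or 2 gave all rows 1 shared variance. The cause was not tested. Same-numbered repeats of the 2 levels correlated at -0.03, -0.11 and 0.20 and were not taken as paired; repeat 1 of both levels lies in the first array set, and repeat 3 of both in the second; the block left Anxa1 at -0.96 and -1.23.

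Signs of genes that were not members also turned. With signs kept as deposited, low calcium values were 0.43 (Anxa11), 0.31 (Anxa2), 0.45 (Anxa3), 0.22 (Anxa4), 0.76 (S100a6), 0.45 (S100a9), 1.01 (Pdcd6) and 0.91 (Sprr1a). High calcium values were 0.14 (Anxa2), 0.23 (Anxa3), 0.26 (Anxa4), 0.26 (Anxa5), 0.21 (S100a6), 0.39 (S100a10), 0.21 (S100a9), 0.30 (Sgk1), 0.22 (Capns1), 0.41 (Cdh1) and 0.32 (Sprr1a). On forward arrays, low calcium values were 0.31 (Anxa11), 0.13 (Anxa2), 0.048 (Anxa4) and 0.34 (Pdcd6), and that of Anxa4 in high calcium was 0.20. On reversed arrays, high calcium values were 1.09 (Anxa10), -0.03 (Anxa11), -0.24 (Anxa7), 0.023 (Pla2g4a) and 0.40 (Esyt1). Anxa11 in low calcium was 0.0077 on the same spread, Anxa4 in high calcium 0.16 with the array set block, and Esyt1 in high calcium 0.20 with single arrays kept. S100a6 in low calcium, S100a10 and Krt10 in high calcium and Sprr1a at both levels did not pass with arrays as replicates, single arrays kept, the same spread or the trended and robust variance. Each of those fits called 0 or 1 of all rows at a level, so these losses say little about the genes.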
